A study of Homo sapiens with 3 samples.

Results

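Peaks on human chromosome 20 were examined in 2 ChIP-seq libraries, replicates 2 and 3, prepared from untreated cells of the hepatocellular carcinoma line Huh7. The antibody for both was anti-FOXM1 (G-5). All peaks of the chromosome were taken, 404 of the 8271 peaks of replicate 2 and 536 of the 11502 of replicate 3. The study also sequenced 1 input library, which had no peak list here. The labels name neither separate cultures nor a library from cells without FOXM1, so specificity of the peaks for FOXM1 was not tested. ChIP-seq sequences the DNA that an antibody pulls down. A peak is a stretch where such fragments exceed a local control background, and its fold enrichment is the ratio of the 2 at the highest point, the summit. Fold, p and q of each peak were taken from the lists as deposited.

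FOXM1 is a forkhead transcription factor of dividing cells that switches on genes of the G2 and M phases. At many of these genes it is known to be recruited by B-MYB (MYBL2) and the MuvB complex, which recognises the CHR promoter element, while forkhead proteins alone favour another motif. Chromosome 20 carries several known mitotic targets, among them AURKA, TPX2 and UBE2C, all on its long arm, a stretch often gained in carcinomas. It also carries the liver factor genes HNF4A, FOXA2 and CEBPB.

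Peaks of the libraries that overlapped by at least 1 bp were merged into shared loci, which numbered 278 on chromosome 20. A protein-coding gene is called bound where the summit of a shared locus lay no more than 1 kb from either of its ends. This was so for 192 of 537 genes (35.8%, exact Clopper-Pearson 95% interval 31.7 to 39.97), against 19.4% of genes on the other 21 autosomes. The chromosome was chosen by this share, measured in these lists, so the share is a description and no test is attached to it. Intervals cover counting error only. Genes and regions are not replicates, and 2 libraries of 1 group allow no test over samples.

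The promoters of the most enriched bound genes are shown as the DNA at and beside these peaks, which covered some windows whole and others only in part. Each window below runs from 250 bases before to 50 after the start site, taken from RefSeq (GRCh38.p14), 5′ to 3′ on the gene's strand. The first 3 belong to the genes of highest fold with a window in the table, and the last 2 to members of the mitosis list. POFUT1 (chr20:32207630-32207929, plus strand) encodes a fucosyltransferase that modifies Notch receptors. TAF4 (chr20:62065832-62066131, minus strand) encodes a subunit of the general transcription factor TFIID. SLC2A4RG (chr20:63739526-63739825, plus strand) encodes a DNA-binding regulator of a glucose transporter gene. CDC25B (chr20:3786701-3787000, plus strand) encodes a phosphatase that activates cyclin-dependent kinases at mitotic entry, and NINL (chr20:25585482-25585781, minus strand) a centrosomal protein. PLAGL2 and CENPB start in the opposite direction from largely the same DNA as POFUT1 and CDC25B, and their windows are not repeated. Capitals mark every match, on either strand, to any of 9 short motifs. These were the forkhead motif GTAAACA and the cell cycle element CHR, searched as TTTGAA. The others were the CCAAT box, the GC box searched as GGGCGG and the palindromic E-box searched as CACGTG. The last were the ETS motif in the form CCGGAAG, the NRF1 motif in the form GCGCATGCG, the AP-1 motif in the form TGACTCA and the E2F motif in the form TTCCCGC.
POFUT1: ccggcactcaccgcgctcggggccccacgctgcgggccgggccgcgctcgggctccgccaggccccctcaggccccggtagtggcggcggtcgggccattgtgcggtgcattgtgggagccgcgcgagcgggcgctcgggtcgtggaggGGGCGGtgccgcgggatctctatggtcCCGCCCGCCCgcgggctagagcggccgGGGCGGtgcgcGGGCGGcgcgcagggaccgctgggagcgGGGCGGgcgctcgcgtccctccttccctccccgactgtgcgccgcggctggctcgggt
TAF4: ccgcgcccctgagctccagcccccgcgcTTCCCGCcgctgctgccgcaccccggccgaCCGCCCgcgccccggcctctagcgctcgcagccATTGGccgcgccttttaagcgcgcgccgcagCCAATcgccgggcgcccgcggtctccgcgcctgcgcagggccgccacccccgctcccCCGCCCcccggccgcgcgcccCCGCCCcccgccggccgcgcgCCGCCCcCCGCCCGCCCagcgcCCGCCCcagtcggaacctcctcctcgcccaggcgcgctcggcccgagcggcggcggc
SLC2A4RG: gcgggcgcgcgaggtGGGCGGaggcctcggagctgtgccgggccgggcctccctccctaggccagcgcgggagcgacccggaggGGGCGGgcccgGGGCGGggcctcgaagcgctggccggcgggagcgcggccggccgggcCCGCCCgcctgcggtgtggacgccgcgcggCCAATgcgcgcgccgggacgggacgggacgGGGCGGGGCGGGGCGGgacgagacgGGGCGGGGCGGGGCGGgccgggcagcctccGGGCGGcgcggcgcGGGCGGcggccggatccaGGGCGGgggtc
CDC25B: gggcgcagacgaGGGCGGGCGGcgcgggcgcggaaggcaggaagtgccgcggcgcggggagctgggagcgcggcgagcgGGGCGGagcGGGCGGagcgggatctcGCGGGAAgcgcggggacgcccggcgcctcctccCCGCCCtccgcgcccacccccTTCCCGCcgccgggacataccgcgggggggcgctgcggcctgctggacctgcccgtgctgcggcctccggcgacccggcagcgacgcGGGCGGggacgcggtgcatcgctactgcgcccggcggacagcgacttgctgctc
NINL: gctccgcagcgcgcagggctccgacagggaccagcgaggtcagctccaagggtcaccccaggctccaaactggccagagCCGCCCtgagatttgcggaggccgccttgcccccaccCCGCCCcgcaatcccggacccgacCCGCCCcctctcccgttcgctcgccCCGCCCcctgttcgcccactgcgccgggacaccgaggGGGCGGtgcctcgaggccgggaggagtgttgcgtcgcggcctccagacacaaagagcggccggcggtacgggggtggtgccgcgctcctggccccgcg

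GC boxes made up nearly all of the capitals. POFUT1 had 6 of them, TAF4 7, SLC2A4RG 13, CDC25B 6 and NINL 5, with overlapping matches counted apart. TAF4 also had 2 CCAAT matches and 1 E2F match, SLC2A4RG 1 CCAAT match and CDC25B 2 E2F matches. The letters searched for the forkhead motif and the CHR were in none of these windows, which says nothing of the factor. The windows were rich in CpG, with 49 CpG dinucleotides in POFUT1, 56 in TAF4, 56 in SLC2A4RG, 53 in CDC25B and 35 in NINL. Mean summits lay inside the window at POFUT1 (base 197 of the window), TAF4 (base 39) and CDC25B (base 125). At SLC2A4RG and NINL the summit lay beyond the window, further into the gene. Of the 300 bases of each window, peaks of both libraries covered 300 at POFUT1, 178 at TAF4, 75 at SLC2A4RG, 212 at CDC25B and 81 at NINL, all peaks that touch the window included. The GC boxes wholly inside that stretch were 6 of 6 at POFUT1, 1 of 7 at TAF4, 1 of 13 at SLC2A4RG, 4 of 6 at CDC25B and 0 of 5 at NINL. Outside POFUT1, then, many of the capitals were not under peaks of both libraries.

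Chromosome 20 had the highest bound share of the 22 autosomes. Chromosome 22 followed with 130 of 451 genes (28.8%, 24.7 to 33.2) and chromosome 9 with 221 of 778 (28.4%, 25.3 to 31.7). Both intervals overlapped that of chromosome 20, which was chosen for its share. Per 100 protein-coding genes there were 51.8 shared loci on chromosome 20 and 27.1 on the other autosomes. Per Mb between the first and last annotated gene there were 4.33, less than on the gene-rich chromosome 19 (6.73) and more than on chromosome 17 (4.01). Chromosome 20 ranked 6 in genes per Mb, with 8.36 against 6.62 over the other autosomes. Taken alone, replicate 2 gave 40.97% of genes on chromosome 20 against 25.6% elsewhere, and replicate 3 gave 50.7% against 32.7%.

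**Figure D1:**
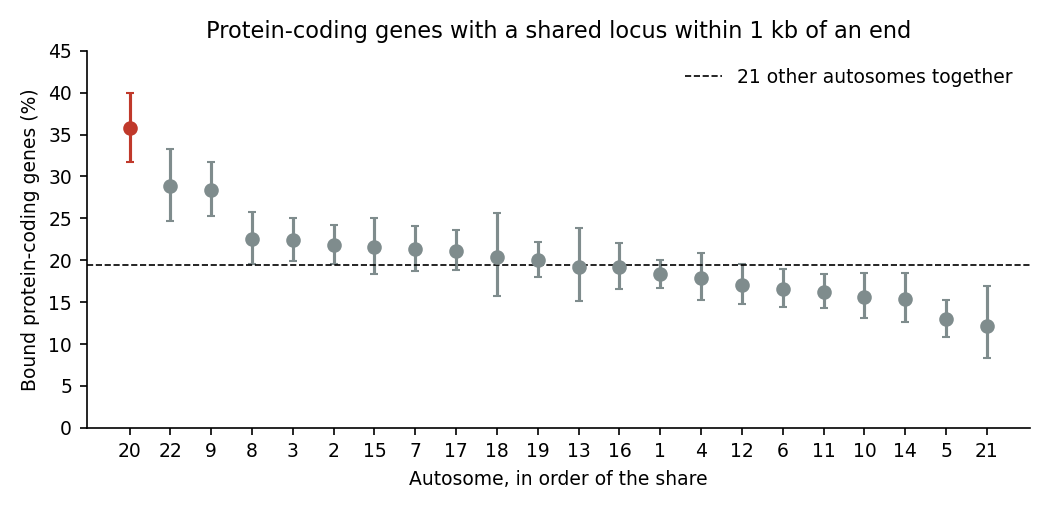
Share of protein-coding genes with a shared locus no more than 1 kb from an end (y axis, percent) on each autosome (x axis, ordered by share). Points are shares, bars are exact 95% intervals and the dashed line is the 21 other autosomes together. Chromosome 20, in red, stands at 35.8% with chromosomes 22 (28.8%) and 9 (28.4%) next.

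The share was above that of the other autosomes in 4 of 5 classes of local gene density and in every class of gene length. These classes split the same genes by which the chromosome was chosen, so they give no separate support. Among genes with 11 to 20 protein-coding genes centred within 500 kb, 89 of 235 on chromosome 20 were bound (37.9%) and 20.7% elsewhere. With 21 to 40 such genes it was 53 of 131 (40.5%) against 18.4%. The exception was the densest class, over 40 genes, with 1 of 11 genes bound on chromosome 20 (9.09%, exact interval 0.230 to 41.3) against 22.5%. By length, genes under 10 kb were bound in 31.6% of cases on chromosome 20 and 15.0% elsewhere, and genes of at least 100 kb in 35.9% and 24.7%.

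Single peaks of chromosome 20 were not stronger in fold. Their median fold was 3.55 in replicate 2 and 3.51 in replicate 3, against 3.76 and 3.79 on the other autosomes, and chromosome 20 ranked 21 of 22 in both libraries. Whole fragment counts and the control background at each summit were rebuilt from the authors' fold and p. The median fragment count on chromosome 20 was 31 in replicate 2 and 30 in replicate 3, against 26 and 24 elsewhere, the highest of any autosome in replicate 3 and level with chromosome 11 in replicate 2. The median background was 6.55 and 6.34 fragments, against 5.00 and 4.89. More fragments thus stood over a higher background, and the ratio of the 2 was lower. Median −log10 q was 4.15 and 4.11 on chromosome 20 and 3.82 in both libraries elsewhere.

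Across the 22 autosomes the background and the bound share were loosely related. Spearman's rho of the median background with the share was 0.410 in replicate 2 and 0.451 in replicate 3, and Pearson's r 0.39 and 0.55. Without chromosome 20 rho was 0.344 and 0.369, and r fell to 0.18 and 0.35. The points share libraries and a background taken to come from 1 control, so these are descriptions. Chromosome 11 ranked 1 and 2 in background and 18 in bound share, and chromosome 22 ranked 2 in share and 15 and 16 in background. Other chromosomes were high in both: chromosome 9 ranked 3 in share and 5 and 4 in background, and chromosome 3 ranked 5, 4 and 3. Within chromosome 11 the stretch from 65 to 70 Mb had a background of 13 and 11.7, with 74 of 141 genes bound. From 55 to 60 Mb it was 13.7 and 14, with 11 of 113 bound. Background and median fold had rho of -0.840 and -0.855, a relation that is in part built in, since fold is divided by the background and the background was rebuilt from fold. The share also depended on which scale sets the threshold. With −log10 q of at least 5 in both libraries, 12.1% of chromosome 20 genes and 4.37% of the others were bound, a ratio of 2.77. With fold of at least 4 in both, it was 8.75% and 5.94%, a ratio of 1.47, against 1.84 with the full lists. Fragments and background of each arm were also scaled down to the median background of the other autosomes, keeping the peaks that would still have passed the lowest p of their library. This added alternative left 181 of 537 genes bound (33.7%), a ratio of 1.74. Kept peaks retained their bounds and summits, so the scaling could remove peaks but not narrow them. It does not give the share that peak calling at that background would find. The part of the background in the share was not tested further.

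**Figure D2:**
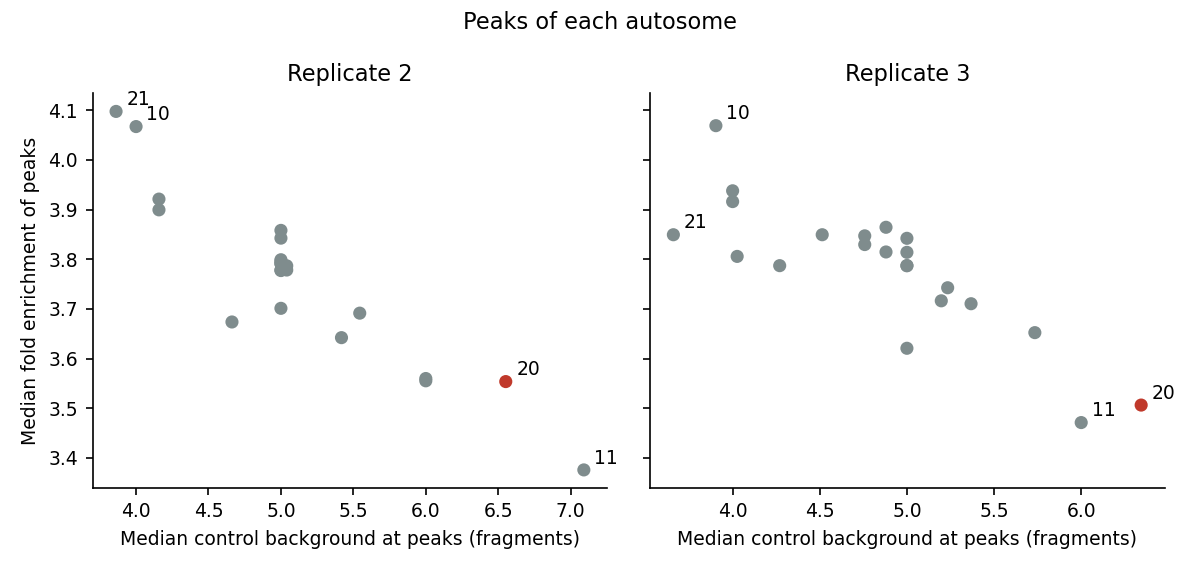
Median fold enrichment of the peaks of an autosome (y axis) against the median rebuilt control background at those peaks in fragments (x axis), 1 point per autosome and 1 panel per library. Chromosome 20, in red, lies at the low-fold, high-background end with chromosome 11, and chromosomes 10 and 21 lie at the low-background end.

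The bound share and the background were also set side by side along the chromosome, and their relation there was not tested. The short arm, up to 28 Mb, had 70 of 180 genes bound (38.9%, 31.7 to 46.4) and 106 shared loci. The long arm had 122 of 357 (34.2%, 29.3 to 39.3) and 172 loci, and the intervals of the arms overlapped. Median background was 8.03 and 8.00 fragments on the short arm and 5.92 and 5.73 on the long arm. Peaks of the short arm had median fragment counts of 36 and 34 and median folds of 3.34 and 3.43, against 29 and 27 fragments and folds of 3.65 and 3.57 on the long arm. The sign of the difference between arms was not stable: with fold of at least 4 the long arm had the higher share, 9.80% against 6.67%, and after scaling the background the shares were 34.4% on the short arm and 33.3% on the long arm.

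In segments of 5 Mb with at least 20 genes the share was highest at the ends of the chromosome. The first 5 Mb of the short arm had 39 of 81 genes bound (48.1%), with 80 peaks in replicate 2 and 97 in replicate 3. Its background was the highest of the segments in replicate 2, at 9 fragments, and 8.66 in replicate 3. The last segment of the long arm, from 60 Mb on, had 36 of 65 genes bound (55.4%, exact interval 42.5 to 67.7), with 64 and 100 peaks. Its background was 5.17 and 5.00, close to that of the other autosomes. Among the 351 autosomal segments with at least 20 genes this one ranked 3 by bound share and 133 and 137 by background, while the first segment ranked 12 by share and 6 and 5 by background. Chromosome 20 was chosen for its share. All 10 of its segments with at least 20 genes exceeded the median share of the segments of the other autosomes (18.2%). The lowest of them were 20 to 25 Mb (18.8%) and 45 to 50 Mb (18.8%). The step down in background lay on the long arm, not at the centromere: the first full segment of the long arm, 30 to 35 Mb, had 7.94 and 8 fragments, with 25 of 67 genes bound, and the next, 35 to 40 Mb, had 5.67 and 5.61, with 20 of 60 bound. Between 25 and 30 Mb, which holds the centromere, 6 of only 9 genes were bound.

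**Figure D3:**
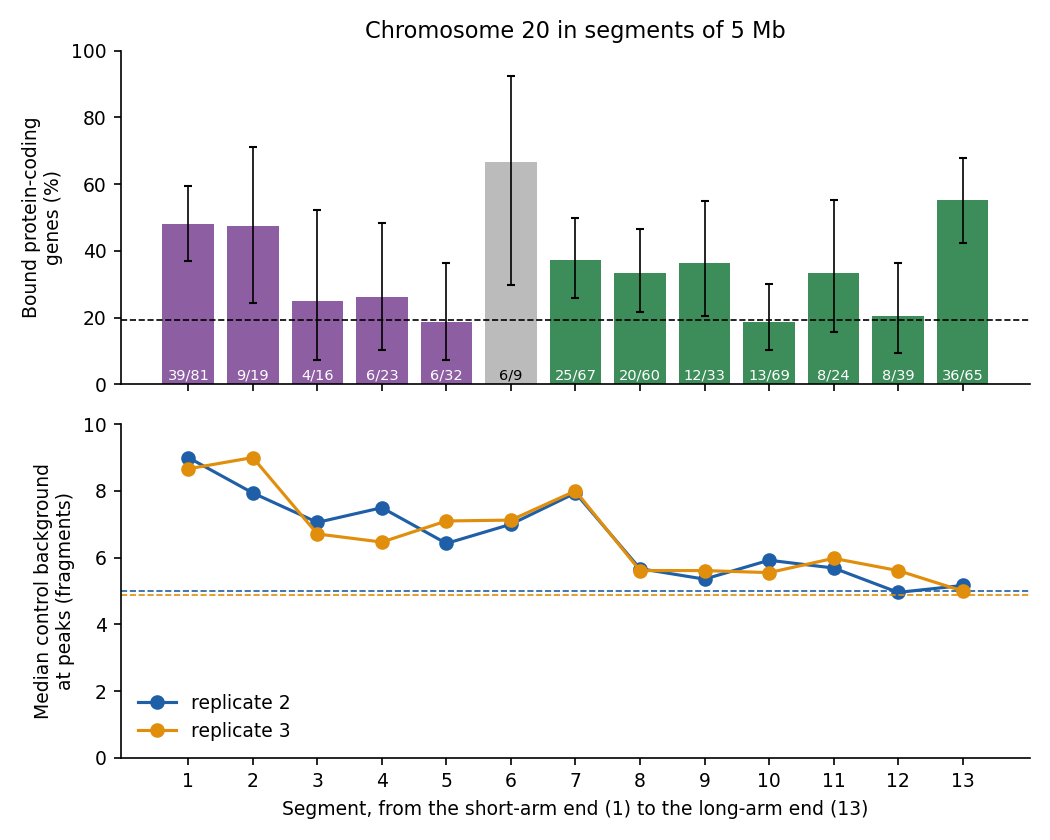
Chromosome 20 in 13 segments of 5 Mb. The upper panel gives the share of protein-coding genes bound (y axis, percent) with exact 95% intervals and the number bound of all genes, for the short arm (purple), the segment with the centromere (grey) and the long arm (green). The lower panel gives the median rebuilt control background at peaks (y axis, fragments) for each library, and dashed lines give the other autosomes. The share is 48.1% and 55.4% in the end segments, while the background is near 9 at the short-arm end and near 5 at the long-arm end.

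Most shared loci of the chromosome sat at gene ends, as elsewhere. Of the 278 loci, 188 lay no more than 1 kb from a protein-coding gene end (67.6%, exact interval 61.8 to 73.1), against 69.4% on the other autosomes. A further 60 (21.6%) lay deeper inside such a gene, 14 in or near a gene of another type and 16 (5.76%) between genes. The bound genes rested on 171 loci, of which 19 served a pair of genes and 1 served 3. Where the strand was known, from the RefSeq promoter table for 146 of the 192 bound genes, 139 had the locus at the 5′ end alone (95.2%), 6 at the 3′ end alone and 1 near both. On the other autosomes 94.3% had it at the 5′ end alone. The 6 genes with a locus at the 3′ end alone were LIME1, EIF6, SPEF1, C20orf204, C20orf144 and GNRH2. At 5′ ends the median summit was 113 bp downstream of the annotated end (quartiles -28.2 and 243), against 102 bp elsewhere, and 96 of 140 summits (68.6%) fell within 250 bp of it, against 61.5%.

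Promoter windows with peaks were rich in CpG. Of 384 windows of chromosome 20, 105 (27.3%) overlapped a peak of both libraries, against 12.4% on the other autosomes. Their median CpG count was 36, against 18 in the remaining windows of the chromosome. None of the 98 windows with under 10 CpGs and none of the 50 with 10 to 19 carried peaks of both libraries (exact upper limits 3.69% and 7.11%). With 20 to 29 CpGs it was 22 of 90 (24.4%, 16.0 to 34.6) and with 30 or more 83 of 146 (56.8%, 48.4 to 65.01), against 9.16% and 32.3% of such windows elsewhere. Chromosome 20, chosen for its share of bound genes, had the higher share within both CpG-rich classes.

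**Figure D4:**
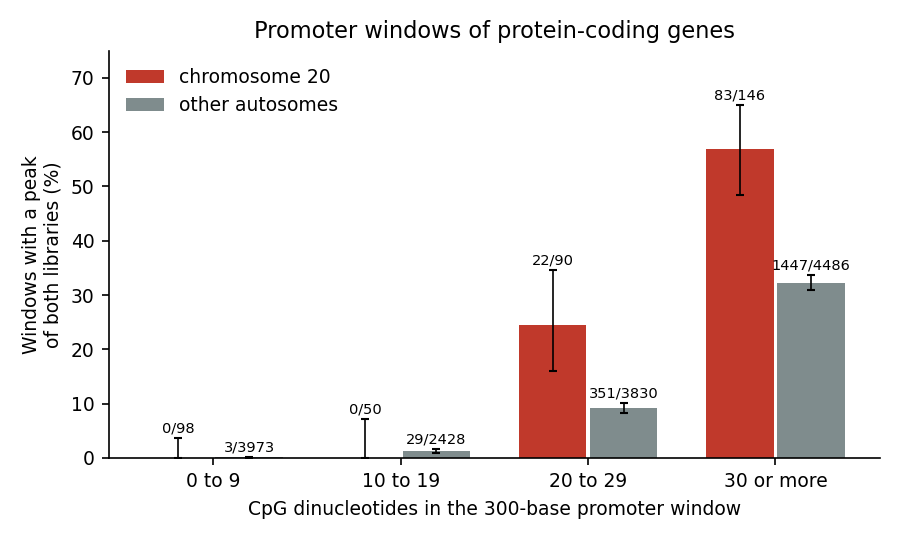
Share of promoter windows of protein-coding genes that overlap a peak of both libraries (y axis, percent) by the number of CpG dinucleotides in the window of 300 bases (x axis), on chromosome 20 (red) and the other autosomes (grey). Bars are shares with exact 95% intervals and the counts stand above. Shares are 0 on chromosome 20 below 20 CpGs and reach 56.8% at 30 or more, against 32.3% elsewhere.

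Motifs were counted over whole windows, not only over the bases under a peak, and the GC box was in most windows that touched peaks of both libraries. It was in 92 of the 105 such windows of chromosome 20 (87.6%) and 90.3% of those of the other autosomes, and in 45.9% of the remaining windows of chromosome 20. The GC box and the CpG count are not independent. CCAAT was in 29.5% of the windows with peaks on chromosome 20 and 27.9% of those elsewhere, against 32.3% of the chromosome 20 windows without them. The CHR was in 4 of the 105 (3.81%) and 4.59% elsewhere, against 11.5% without such peaks. The forkhead motif was in 2 (1.90%) and 1.69% elsewhere, against 2.15%. The letters of the CHR and the forkhead motif are mostly A and T. Median GC was 74% in the chromosome 20 windows with peaks and 60% in those without. The part of base composition in these counts was not tested. The E2F motif was in 11.4% and 12.6%, ETS in 16.2% and 16.7%, the E-box in 8.57% and 11.3%, the NRF1 motif in 6.67% and 2.79%, and AP-1 in 0.952% and 2.08%, each time with chromosome 20 first. Over all windows of the other autosomes, with and without peaks, the GC box was in 58.9%, CCAAT in 36.1%, the CHR in 12.1%, the forkhead motif in 2.65%, E2F in 8.59%, ETS in 14.3%, the E-box in 8.78%, NRF1 in 2.77% and AP-1 in 3.70%. A match is a run of letters and not a site.

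The libraries ranked the loci of chromosome 20 alike to a moderate degree. Across its 278 loci the log2 folds had a Pearson's r of 0.50 and the folds a Spearman's rho of 0.484, against 0.42 and 0.389 on the other autosomes. Both folds are divided by a background that may come from 1 control, and r is a description. Median summits were 92 bp apart, and 148 loci (53.2%) had them no more than 100 bp apart. The share of peaks with a partner in the other library was 75% in replicate 2, the highest of any autosome, and 55.6% in replicate 3, where chromosome 20 ranked 2. On the other autosomes it was 69.3% and 49.2%. Loci of at least 600 bp made up 31.7% on chromosome 20 and 24.1% elsewhere.

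**Figure D5:**
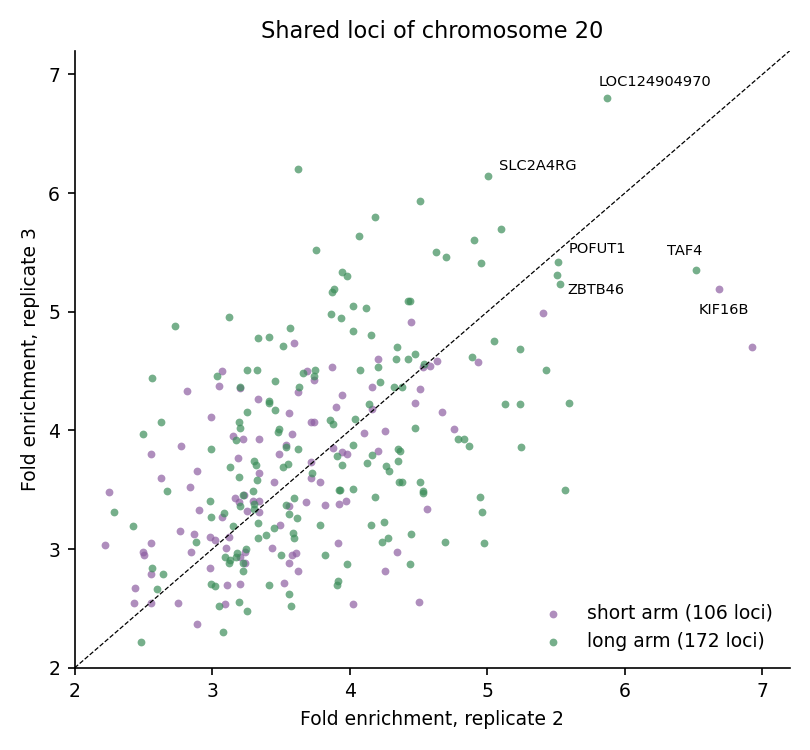
Fold enrichment of the 278 shared loci of chromosome 20 in replicate 2 (x axis) and replicate 3 (y axis), 1 point per locus, coloured by arm, with the line of equal fold dashed. Names give the nearest protein-coding gene of 6 of the strongest loci. KIF16B and TAF4 lie below the line, with higher fold in replicate 2.

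The strongest locus by the lower of its 2 folds lay beside the centromere (30811958 to 30812170), with fold 5.87 in replicate 2 and 6.80 in replicate 3 on 38 and 42 fragments. The nearest protein-coding gene was the uncharacterised LOC124904970, 1361 bp away. How well reads map to this stretch was not examined. Next came the shared promoter of POFUT1 and PLAGL2, a zinc finger gene (32207364 to 32208042), with fold 5.51 and 5.42 on 52 and 50 fragments. At TAF4 (62065983 to 62066458) fold was 6.52 and 5.36, with the summit 212 bp upstream of the start. Loci inside ZBTB46, which encodes a zinc finger protein of dendritic cells (5.51 and 5.31), and inside DIDO1, which encodes a chromatin reader protein (5.53 and 5.24), lay 2103 bp and 11403 bp from the nearest gene end. INSM1, a zinc finger gene of neuroendocrine cells, had 5.41 and 4.99, with the summit 1076 bp from its end.

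The top group held promoters, sites inside genes and sites between genes. POFUT1 and TAF4 had their loci at the promoter. At SLC2A4RG (fold 5.01 and 6.14) the summit lay 452 bp downstream of the start, beyond the promoter window. KIF16B (16227098 to 16227248; 6.69 and 5.19) and RALGAPB (38461273 to 38461456; 4.95 and 5.41) were only the nearest genes of narrow loci between genes, 44915 bp and 11516 bp away. The RALGAPB locus rested on 22 and 23 fragments over backgrounds of 2.97 and 2.88. The highest fold of any replicate 2 peak on the chromosome, 6.93, lay between genes near SRXN1 (642055 to 642191), where replicate 3 had 4.71. That peak had a background of 6 fragments in replicate 2 and 9 in replicate 3, on 56 and 53 fragments, so the fragment counts were closer than the folds.

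By q the order changed. ID1, which encodes an inhibitor of differentiation that blocks basic helix-loop-helix factors, had the highest −log10 q of replicate 2, 22.6, and 13.9 in replicate 3, on 78 and 67 fragments. Its folds of 5.597 and 4.23 stood over backgrounds of 11 and 13 fragments. The summit lay 159 bp downstream of the start. ZNF341, a zinc finger gene, had the highest of replicate 3, 16.1, and 11.2 in replicate 2 (fold 5.93 and 4.51). The bound gene of lowest fold was SPAG4, with fold 2.48 and 2.22 and −log10 q of 1.92 and 1.32, at the edge of the lists.

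Other genes among the 20 bound with the highest lower fold were mostly on the long arm. PRELID3B had fold 4.90 in replicate 2 and 5.61 in replicate 3, and ATP5F1E, which encodes a subunit of ATP synthase, had 4.54 and 4.56. SDC4, a cell surface proteoglycan gene, had 5.05 and 4.75. ASXL1, a Polycomb-associated chromatin gene, had 5.24 and 4.69 on 52 and 44 fragments. STX16, a syntaxin gene of vesicle traffic, had 4.62 and 5.50, with the summit 962 bp upstream of the start. UCKL1 and ZNF512B shared a locus (4.47 and 4.65), as did ARFRP1 and ZGPAT (4.43 and 5.09), and HRH3, a histamine receptor gene, had 4.44 and 5.09. Of the short arm, BTBD3 (4.64 and 4.59), CST3 (4.93 and 4.58), EBF4 (4.58 and 4.54) and BMP2 (4.53 and 4.53) were in this group.

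NOL4L held 7 shared loci in 142 kb, more than any other gene of chromosomes 1 to 22 and X, where GSE1, IQSEC1 and SEPTIN5 followed with 6 each. The locus nearest its start (32584728 to 32585553) had fold 4.89 in replicate 2 and 4.62 in replicate 3. The one beside it, 1564 bp from the same 5′ end of the gene (32583074 to 32584528), had 5.10 and 5.70 and was 1455 bp wide. A group of 3 lay about 40 kb from the opposite end, at 32482577 to 32484849, with folds of 3.19 and 4.07, 3.94 and 5.34, and 2.50 and 3.97. Replicate 3 was higher in each of these 3. The other two had 4.04 and 4.09, and 3.22 and 3.45. On chromosome 20 no other gene had more than 3 loci, the number in ACSS1, EBF4, NECAB3 and the readthrough gene TGIF2-RAB5IF.

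The widest shared loci were at promoters and near them. They were at SLC4A11, a transporter gene (1560 bp; fold 2.89 and 3.66), CEBPB (1472 bp), the NOL4L locus above (1455 bp), MTCL2 (1411 bp; 5.24 and 4.22) and SOX12 (1355 bp; 3.98 and 3.804). Of the loci farthest from any protein-coding gene end, 4 flanked the centromere. That at 29411385 to 29411527, within the pseudogene DUX4L34, had fold 2.60 and 2.66 over a background of 17 fragments in both libraries. Another, at 26208147 to 26208355 (3.56 and 3.37), covered MIR663A. The exception lay 79081 bp from HAO1 on the short arm (7803768 to 7804018; 3.49 and 3.20). Leaving out 25 to 31 Mb left 263 shared loci and 35.1% of genes bound.

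The gene lists that follow were made from textbook roles with earlier results of these data known, and each count is to be read beside the 35.8% of all chromosome 20 genes. Of 14 genes of G2/M and mitosis 8 were bound (57.1%, exact interval 28.9 to 82.3). FAM83D, a spindle protein gene, had fold 4.32 in replicate 2 and 4.36 in replicate 3 and its summit 11 bp from an end. CDC25B and CENPB, a centromere protein gene, shared their locus (3.74 and 4.43). UBE2C, the ubiquitin-conjugating enzyme of the anaphase-promoting complex, had 3.46 and 4.42. MYBL2, the B-MYB gene itself, had 3.13 and 3.69, with the summit 58 bp downstream of the start. MAPRE1, a microtubule end-binding protein gene (3.19 and 3.61), NINL (3.19 and 3.39) and CHMP4B, of the abscission machinery (3.08 and 2.31), were the others.

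AURKA, the mitotic kinase gene, was not bound: its nearest peaks lay 10456 bp and 10423 bp from an end in replicates 2 and 3. TPX2, the activator of that kinase, had a peak of replicate 2 alone 120 bp from an end (fold 3.13), with the nearest of replicate 3 at 15688 bp. CEP250, a centrosome gene, had one of replicate 3 alone at 156 bp (2.48). RAE1, of mRNA export and the spindle checkpoint, had no peak nearer than 10191 bp to an end. A missing peak says only that the threshold of the list was not passed.

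Of 11 genes of G1/S, replication and repair 4 were bound. E2F1, the S phase transcription factor gene, had fold 3.48 in replicate 2 and 4.02 in replicate 3. PCNA, the sliding clamp of DNA polymerase, shared a locus with CDS2 (3.62 and 2.82). ITPA, which cleans the nucleotide pool (3.20 and 2.71), and SAMHD1, a dNTP hydrolase gene (3.25 and 2.998), had low values, with −log10 q of 1.95 and 2.07 at SAMHD1. TOP1, the topoisomerase gene, had a peak of replicate 3 alone 28 bp from an end (fold 3.51). GINS1 and MCM8, of the replication machinery, had no peak nearer than 16816 bp and 7115 bp to an end.

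Hepatocyte factors and metabolic genes were bound in 4 of 24 cases: SDC4, CEBPB, ACSS1 and TRIB3. CEBPB, an inducible liver factor gene, had fold 4.79 in replicate 2 and 3.93 in replicate 3. Its summit lay 493 bp downstream of the start. ACSS1, a mitochondrial acetyl-CoA synthetase gene, had 3.45 and 3.57, and TRIB3, a stress-induced pseudokinase gene, had 3.24 and 2.98. HNF4A, the nuclear receptor of hepatocyte identity, was not bound, with its nearest peaks 28828 bp and 28883 bp from an end. FOXA2 had its nearest peaks at 1241 bp and 539 bp, and 2 and 3 peaks inside the gene. It held 1 shared locus (lower fold 2.98) and was not bound by the 1 kb rule. The same held for AHCY (lower fold 3.43), ACSS2 (2.69) and SLC23A2 (3.05), each with 1 shared locus farther from the ends. Of the liver products, PCK1, HAO1 and LBP had no peak nearer than 28994 bp to an end. Peaks are calls of occupancy and no measure of expression, so they do not check the cell type.

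Of 28 genes of growth and cancer signalling 11 were bound. Besides ID1 and BMP2, a bone morphogenetic protein gene whose loci had 48 and 51 fragments, PLCG1, a phospholipase gene of receptor signalling, had fold 4.19 in replicate 2 and 5.80 in replicate 3. YWHAB, a 14-3-3 gene, had 4.36 and 3.57. SNAI1, which encodes the transcription repressor Snail, had 4.23 and 3.06, and SRC, the founding tyrosine kinase gene, 4.13 and 3.72. NCOA3, a steroid receptor coactivator gene amplified in breast cancer, had 3.88 and 4.06, and BCL2L1, the survival gene, 3.62 and 3.26. TGIF2 (3.33 and 4.78) and BCAS4 (3.13 and 2.91) were also bound. ZNF217, a 20q amplification gene, was not bound, with peaks 3116 bp and 3916 bp from an end, 3 inside it in replicate 2 and 2 in replicate 3. GNAS had 3 peaks inside it in each library and one of replicate 2 alone 21 bp from an end, and STK4 had a replicate 2 peak at 128 bp.

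Chromatin and transcription genes had 16 of 25 bound (64%, exact interval 42.5 to 82.03). PLAGL2, TAF4 and ASXL1 led. GMEB2 had fold 4.43 in replicate 2 and 4.60 in replicate 3, DNMT3B, a de novo DNA methyltransferase gene, 4.29 and 3.65, and L3MBTL1, a reader of methylated histones, 3.98 and 5.30. SOX18 (3.92 and 3.50), ZHX3 (3.46 and 4.18), ADNP (3.45 and 3.18) and DIDO1 at its promoter (3.41 and 4.25) followed. ZNF335 had 3.39 and 3.12, ZNF343 3.34 and 3.31, CHD6, a chromatin remodeller gene, 3.09 and 3.31, and NCOA6 2.63 and 4.07. ZFP64 was marginal in replicate 2, with fold 2.56 and −log10 q of 1.82, and had 4.44 in replicate 3, and ZNF337 had 2.56 and 3.05. Among the unbound, CTCFL, a germ line paralogue of CTCF, had no peak nearer than 71463 bp to an end, ZMYND8 none nearer than 145254 bp and GATA5 none nearer than 56247 bp. PHF20 had peaks 177 bp and 54 bp from an end in replicates 2 and 3 (fold 3.78 and 3.93), without a shared locus counting for it. Some other unbound members had a peak of 1 library alone within 1 kb of an end.

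Of 28 genes of RNA and protein handling 12 were bound. NOP56, a core protein of box C/D snoRNPs, had fold 4.16 in replicate 2 and 4.18 in replicate 3. XRN2, a nuclear exonuclease gene, had 3.97 and 3.41, FKBP1A, the FK506 binding protein gene, 3.94 and 4.30, and NSFL1C, a p97 cofactor gene, 3.90 and 4.20 on 54 and 52 fragments. PABPC1L had 4.02 and 3.51, EIF6, a ribosome assembly factor gene, 3.41 and 4.79, and PSMA7, a proteasome subunit gene, 3.41 and 4.23. The EIF6 locus lay at the 3′ end of that gene, with its summit 138 bp downstream of the start of MMP24OS. DNAJC5 (3.31 and 3.74), RALY (3.25 and 2.48), PFDN4 (3.03 and 4.46), RBM12 (2.98 and 3.402) and MRPS26 (2.50 and 2.95) completed the list. The spliceosome genes SNRPB and SNRPB2 had no peak nearer than 53839 bp and 156660 bp to an end. At SRSF6 and RPS21 replicate 3 alone had a peak within 1 kb, at 78 bp and 142 bp.

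Gene families restricted to other tissues were almost without loci. Of 49 members 2 were bound (4.08%, exact interval 0.498 to 13.98): CST3, the broadly expressed cystatin C gene, and SIRPA (3.05 and 4.38). None of 13 beta-defensin genes (upper limit 24.7%), 11 WFDC genes (28.5%), 8 BPIF genes (36.9%) or 2 semenogelin genes was bound. Of the neuronal, endothelial and blood markers 5 of 19 were bound. Among them were EEF1A2, a translation factor gene of neurons and muscle (4.02 and 5.05), OPRL1, an opioid-related receptor gene that shares its locus with RGS19 (4.07 and 4.51), STMN3 (3.41 and 2.70) and CHGB, a secretory granule gene (3.25 and 3.32). The neuronal genes SNAP25 and MYT1 had no peak nearer than 46391 bp and 13381 bp to an end, and the endothelial genes CD93 and THBD none nearer than 263954 bp and 300606 bp.

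Across all 537 genes of the chromosome, 245 (45.6%) had no peak summit of either library within 1 kb of an end. A further 71 had one of replicate 3 alone and 18 one of replicate 2 alone, and 11 had peaks of both libraries there without a shared locus counting for them. Of 500 lncRNA genes 52 were bound (10.4%), against 5.71% elsewhere. Of 48 miRNA genes 6 were bound (12.5%, exact interval 4.73 to 25.2), against 3.78%: MIR6869, MIR1292, MIR663A, MIR3193, MIR3195 and MIR124-3. All but MIR663A and MIR124-3 had a protein-coding gene end no more than 1 kb from the same summit. At MIR124-3, a copy of the neuronal miR-124, fold was 3.88 in replicate 2 and 5.19 in replicate 3.

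Peaks of a single library had lower median folds than shared ones. Replicate 2 had 101 peaks on the chromosome without a partner, with a median fold of 3.46 against 3.59 for its shared peaks and a median of 27 fragments against 33. Replicate 3 had 238, with 3.39 against 3.69 and 26 fragments against 33. The strongest of replicate 2 lay 82 bp from the end of CNBD2 and inside SCAND1 (35954351 to 35954552), with fold 5.01 and −log10 q of 8.48, and the next were inside COL9A3 (4.77), at SYCP2 (4.60) and at KCNK15 (4.53). The strongest of replicate 3 lay inside SRC, 21648 bp from its end (37384317 to 37384549; fold 5.97, −log10 q 9.02). Those after it were near EDEM2 (5.49), inside HSPA12B (5.48), beside KCNG1 (5.46) and inside CDH4 (5.25).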

How the data were processed

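Chromatin of untreated Huh7 cells was sequenced as 1 input and 2 anti-FOXM1 ChIP libraries. CASAVA 1.4, BWA and MACS2 2.2.7.1 and build GRCh38 are named in the submitters' processing notes, without roles. Filters, duplicate handling and the control used in peak calling are not given in the sources used here. The deposited peak lists, 1 per ChIP library, give a fold (a ratio to local background), −log10 p, −log10 q, a score of 10 times −log10 q that was not used, and, as another unit, the summit offset in bp. The deposited summit files repeat the summits and −log10 q of the lists, with 0 differences.

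Fragments and background were rebuilt by taking fold as (scaled count + 1) / (background + 1) and p as a Poisson upper tail. Of the peaks 100% were rebuilt within 0.001 in −log10 p, with scales of 0.848 (replicate 2) and 0.869 (replicate 3). Read as depth over the control, these are 1.18 and 1.15. Total reads were not used here. On simulated data 100% of 352 and 371 peaks had the exact count, and overlaps matched bedtools.

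The highest peak of each library gives a shared locus its values, and the midpoint of the summits its position. Genes came from a RefSeq table of GRCh38.p14 with 59792 records, and strand from promoter windows, found for 384 of 537 genes of the chromosome. The start site in the window matched the gene end in 334. Arms were split at 28 Mb. Genes named were the nearest to the 10 loci and the 20 bound genes of highest lower fold, bound and up to 4 unbound list members besides cell type markers, the 5 highest single-library peaks of each library, and the 5 widest and 5 farthest loci. Some list members are not reported here. Other genes named (3′ ends, miRNAs, most loci, highest and lowest values) and the motifs were chosen after values were seen. Alternatives changed the q, fold, overlap, distance and gene type rules, left out a library or a stretch, and scaled the background. The members and lists were chosen with earlier results of these data known. Python 3.11.15, numpy 2.4.6, pandas 2.3.3, SciPy 1.17.1 and matplotlib 3.10.9 were used. No test was run, since 2 libraries of 1 group allow none.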

Additional observations from a re-analysis of the deposited data

How the results depend on the processing

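With −log10 q of at least 2 in both libraries the background ratio of chromosome 20 to the other autosomes was 1.27, against 1.29 with the full lists. With −log10 q of at least 5 the bound share was 12.1%, its ratio to the other autosomes 2.77, the shared loci 82, the difference in median lower fold -0.14 and the background ratio 1.23. With fold of at least 4 they were 8.75%, 1.47 and 55 loci, and the long arm minus the short arm turned to 3.14 percentage points. The bound share was 24.4% with 50% reciprocal overlap, 20.1% (156 loci) with summits no more than 100 bp apart, 31.1% within 500 bp and 42.5% within 5 kb. With ends of all gene types it was 17.2% and the arm difference turned to 0.028 percentage points. With 1 library alone the ranges were 40.97 to 50.7% for the share, 1.55 to 1.599 for its ratio, -7.38 to -4.39 points between arms, 404 to 536 peaks in place of loci, -0.28 to -0.21 in fold and 1.297 to 1.31 in background. Without the last 5 Mb the arm difference was -8.92 points and the background ratio 1.4. Scaling the background per arm, chosen after seeing the data, gave an arm difference of -1.11 points, and leaving out 25 to 31 Mb, also added then, a background ratio of 1.27. The ratio of bound shares was above 1 in each of these settings. They reuse the lists by which the chromosome was chosen, so this gives no separate support. Fewer peaks enter under stricter thresholds; for the other changes the cause was not tested. No paired analysis was possible because both libraries belong to 1 group. Total reads and mapping uniqueness were not used here, so depth limits and repeat stretches beside the centromere were not examined.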
